A study of Mus musculus with 21 samples.

Results

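The transcripts described here lie on the strand opposite to an annotated exon. Among the 22612 transcripts that the authors merged from long reads of 7 stages, 457 (2.02%) overlapped an exon of the mouse GENCODE vM21 annotation on the other strand by at least 1 base and overlapped no annotated exon on their own strand, and these are called antisense transcripts below. The name follows the strand given in the merged models. The gene on the other strand is called the sense gene. Of the 457, 171 had more than 1 exon and 286 had a single exon. The samples were pools of sperm (DBA/2J per the labels, DBA/2N per the protocol), of oocytes from superovulated C57/BL6J females of 3 to 5 weeks, and of embryos from matings of such females with males of the same strain as the sperm, again DBA/2J in the labels and DBA/2N in the protocol. Oocytes were lysed at 20 h after hCG (7.5 IU), and embryos cultured in KSOM were lysed as 1-cell (24 to 26 h), 2-cell (46 to 48 h), 4-cell (54 to 58 h), 8-cell (68 to 70 h) and blastocyst (94 to 96 h). Each stage had 2 short-read libraries, 1 from each of 2 batches of pooled cells, and 1 long-read library in which both batches were mixed. Apart from these strains, no genotype or drug distinguished the groups, and all females received the hormones.

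Antisense transcripts share complementary sequence with the gene they face. Known examples act on the sense gene through the act of transcription, through RNA pairing or through chromatin, and many others have no known role. In mouse embryos the oocyte's RNA is degraded after fertilization while the zygotic genome is switched on in its major wave at the 2-cell stage. The strand of a transcript is read from its structure: introns nearly always begin with GT and end with AG on the transcribed strand, and a poly(A) signal such as AATAAA precedes most 3′ ends.

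The 457 antisense transcripts faced 413 genes, and 70 of them shared a sense gene with another one. The sense gene was protein-coding for 380 (83.2%), a processed pseudogene for 21 and a lincRNA for 20. Of the transcripts opposite protein-coding genes, 164 lay mainly over coding sequence, 130 over a 3′ UTR, 64 over a 5′ UTR and 22 over noncoding exons. Their median spliced length was 890 bases, and a median of 293 bases lay opposite exons of the sense gene. A total of 284 lay inside the sense gene, 80 overlapped it head to head (5′ ends overlapping), 71 tail to tail (3′ ends overlapping) and 22 covered it whole. Tail-to-tail overlap was found for 30.4% of the antisense transcripts with more than 1 exon and for 6.64% of those with a single exon. For 118 (25.8%), every base lay opposite an annotated exon. The short reads came from Smart-seq2 cDNA cut by Tn5, a method that does not mark strand, so that over shared bases reads of the antisense transcript and of the sense gene cannot be told apart. This limit holds for every TPM given below. It weighs heavily on named transcripts whose bases all lie opposite exons of merged transcripts: TCONS_00005892, TCONS_00005688, TCONS_00002205, TCONS_00021790, TCONS_00018109, TCONS_00002103, TCONS_00001138, TCONS_00004395, TCONS_00008796, TCONS_00018588 and TCONS_00011622. It also weighs on TCONS_00002820, TCONS_00018141, TCONS_00015785, TCONS_00016247 and TCONS_00002613, whose bases all lie opposite exons of a sense gene without merged transcripts. The same holds for nearly all bases of TCONS_00014576 and TCONS_00007108. Levels were given for merged transcripts only, so that reads of these sense genes could not be listed under the gene.

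The sequences at the splice sites and ends show how much the antisense transcripts differed among themselves. They were read from the GENCODE vM21 transcript sequences on GRCm38, the assembly of mm10, and are readable only where an annotated exon covers the window. A first set is shown because its introns carry the usual signals on the antisense strand, with the first 2 or the last 2 bases of the intron in capitals:
TCONS_00005014, opposite Rin3, donor of intron 2, chr12:102389835-102389854, minus strand: cgggcttcagGTaggacaca
TCONS_00002488, opposite Pym1, donor of intron 2, chr10:128766187-128766206, minus strand: ggaggtggagGTgagtcagt
TCONS_00015219, opposite Gtf3c2, donor of intron 1, chr5:31179653-31179672, plus strand: ggggaagaagGTaagaccgg
TCONS_00015219, opposite Gtf3c2, acceptor of intron 1, chr5:31180056-31180075, plus strand: cataatgcAGcgcggcgcgg
TCONS_00012037, opposite Sp3os, acceptor of intron 1, chr2:72988484-72988503, minus strand: tcttcaaaAGatttccacag

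A further set is shown because its introns have exactly the boundaries of an annotated intron of the sense gene, and read on the antisense strand they begin with CT and end with AC, which is GT and AG as read on the other strand:
TCONS_00003446, opposite Ebf1, donor of intron 7, chr11:44621911-44621930, minus strand: gtccgtatccCTgggggtgg
TCONS_00003446, opposite Ebf1, acceptor of intron 7, chr11:44621221-44621240, minus strand: ggagcctcACcattgctgta
TCONS_00014576, opposite Musk, acceptor of intron 8, chr4:58303977-58303996, minus strand: tgcctcttACcctccacttc

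The last set holds the 20 genomic bases that follow the annotated 3′ end of a transcript, with A in capitals, and is shown because such ends were common:
TCONS_00002820, opposite Kdm6b, chr11:69399332-69399351, plus strand: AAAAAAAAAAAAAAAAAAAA
TCONS_00002205, opposite Ccdc6, chr10:70191174-70191193, minus strand: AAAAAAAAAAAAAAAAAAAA
TCONS_00005688, opposite Spin1, chr13:51151407-51151426, minus strand: AAAAAAAAAAAAAAgAAAAA
TCONS_00001138, opposite Tfcp2l1, chr1:118683632-118683651, minus strand: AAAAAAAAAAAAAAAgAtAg
TCONS_00020962, opposite Cdv3, chr9:103355389-103355408, plus strand: AAAAAgAAAAAAAAAAAAAA

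Introns identical to an annotated intron of the opposite strand (mirrored introns) made up 169 of the 477 introns of antisense transcripts (35.4%), against 49 of 18772 (0.261%) in the other merged transcripts that overlap an exon of the opposite strand. Such an intron requires exons on the opposite strand, so over all other merged transcripts (49 of 99028, 0.0495%) the low share is in part set by how the antisense transcripts were chosen. They occurred in 40 of the 171 antisense transcripts with more than 1 exon, and in 11 of these every intron was of this kind. All 16 mirrored donor sites that could be read were CT and all 20 readable acceptor sites were AC. This largely follows from how mirrored introns are defined, because annotated introns nearly always begin with GT and end with AG on their own strand. Overlapping transcripts of a locus were counted separately, among them 7 at Musk with 11 to 13 exons and 3 at Mgat4a with 15. Introns and sites that they share were counted more than once, so these are not counts of distinct sites. Among the introns that were not mirrored, 45 of 65 readable donor sites (69.2%) were GT or GC and 82 of 139 acceptor sites (59.0%) were AG, while both shares were 97.3% in the other merged transcripts. At the 3′ end, 133 of 178 readable antisense transcripts (74.7%) were followed by at least 12 A in 20 genomic bases, compared with 2001 of 8196 other merged transcripts (24.4%). The share was 83.7% for antisense transcripts with a single exon and 41.0% for other transcripts with a single exon. AATAAA or ATTAAA, searched on the transcript's strand, stood in the last 40 bases of 29 of 175 readable antisense transcripts (16.6%) and of 68.8% of the others. Smart-seq2 cDNA is primed with oligo(dT), and the part of priming, or of the strand assigned to a read, in these shares was not tested.

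**Figure D1:**
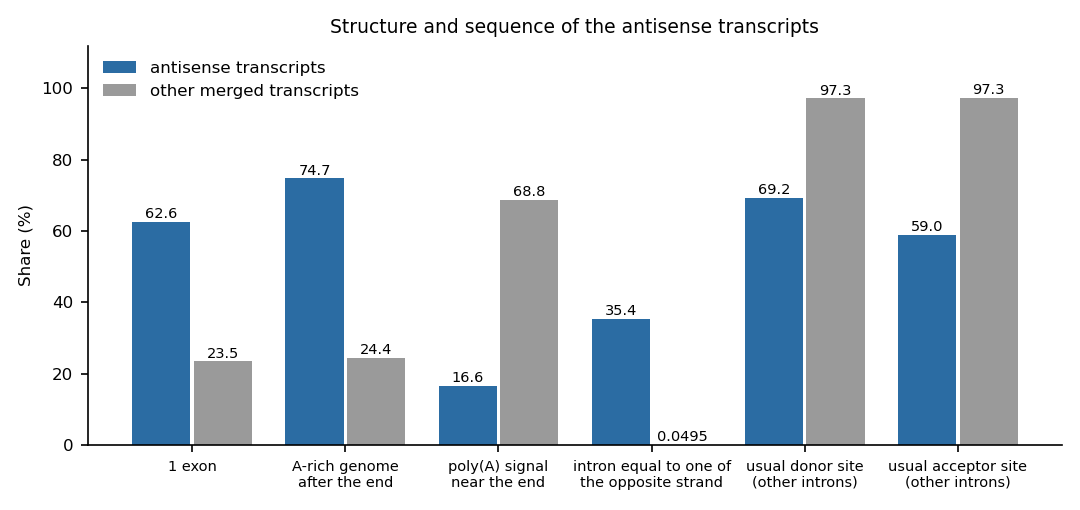
Bars give the share in percent of antisense transcripts (blue) and of all other merged transcripts (grey) with a single exon, with at least 12 A in the 20 genomic bases after the end and with a poly(A) signal in the last 40 bases, and the share of introns that were mirrored. The right pairs give the share of the readable sites of not mirrored introns that were a GT or GC donor and an AG acceptor. Among antisense transcripts, 62.6% had a single exon against 23.5% of the others. Among those with a readable end, 74.7% had an A-rich end against 24.4%, and 16.6% a poly(A) signal against 68.8%. Of the 178 antisense transcripts readable after the end, 143 lay inside the sense gene, 34 tail to tail and 1 head to head.

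In the short reads, the level of a transcript was given as TPM (a transcript's share of all transcripts in a library, scaled for length), so the read depth behind a value is unknown. The antisense transcripts took 0.843% of the TPM in 8-cell replicate 2, the lowest share, and 4.84% in oocyte replicate 2, the highest. At least 1 TPM was reached by 339 of them in 2-cell replicate 2, the most of any library, by 245 in the other 2-cell library and by 169 in blastocyst replicate 2, the fewest. The 2-cell replicates stood farthest apart, with a correlation of 0.70 on the log2(TPM + 1) scale over the antisense transcripts, against 0.96 at the 4-cell stage. Of the 457, 5 were listed at 0 in all 14 libraries. The summed markers of sperm, oocyte and blastocyst were each highest in both libraries of their own stage, but single genes differed. Gdf9 took most of the oocyte sum (4176 and 15568 TPM). Bmp15 was lower in oocyte (141 and 160) than in 1-cell (386 and 1005), as was Nlrp5 (54.2 and 58.0 against 137 and 515). Krt8 and Krt18 took most of the blastocyst sum, and Gata6 was higher in 8-cell (83.0 and 56.6) than in blastocyst (54.2 and 43.2). The markers of the 2-cell stage (5 of 6 with a merged transcript) summed to 21.4 TPM in 2-cell replicate 1 and 510 in replicate 2, against 20.1 to 22.7 in 4-cell and at most 19.2 in the other stages. Replicate 1 thus did not stand apart from the 4-cell libraries. Of the cumulus cell markers, 0 of 6 cumulus cell markers had a merged transcript. In pooled cells, fewer cells that carry a transcript and less of it per cell cannot be told apart. Nothing in the labels says that the batches came from separate animals, so p-values measure the spread between these libraries, which may be technical.

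Of the 10 antisense transcripts with the highest mean TPM, 9 had a single exon, and several varied widely between replicates. TCONS_00002820 (chr11:69399022-69399331, plus strand, 310 bases) lay opposite the 3′ UTR of Kdm6b, which encodes a histone H3K27 demethylase. Its TPM was 407 and 13902 in sperm, 7839 and 19388 in oocyte, 10095 and 780 in 1-cell, 175 and 6912 in 2-cell, 463 and 511 in 4-cell, 3092 and 2569 in 8-cell and 2315 and 6023 in blastocyst. The groups overlapped in most neighbouring stages, and none of the 6 comparisons passed the test. TCONS_00005688 (chr13:51151427-51152428, minus strand) faced the 3′ UTR of Spin1, a histone reader gene. It had 13472 TPM in oocyte replicate 1 and 0 in replicate 2, and 1302 and 1.06 in the 1-cell libraries, so that 1 library of each pair carried nearly all of it. By contrast, TCONS_00015785 (chr5:137399406-137399586, plus strand), opposite a noncoding exon of the zonadhesin gene Zan, was above 100 TPM in 13 libraries and at 19.5 in oocyte replicate 2.

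TCONS_00012132 and TCONS_00011217, opposite the predicted genes Gm10801 and Gm10800 on chromosome 2, reached 12126 and 3463 TPM in sperm replicate 2 but 292 and 114 in sperm replicate 1. In blastocyst they had 4470 and 1388, and 2671 and 2007 TPM. They lie side by side (98662509 to 98662781, minus strand, and 98662839 to 98667332, plus strand). TCONS_00012132 overlapped Gm10801 by only 14 of its 273 bases. TCONS_00001254 (chr1:156525620-156525836, minus strand), opposite Gm10031, ranged from 2.03 in sperm replicate 2 to 1143 in 2-cell replicate 2. TCONS_00021790 lay on the mitochondrial chromosome (1787 to 2559, minus strand), wholly opposite mt-Rnr2, the large mitochondrial ribosomal RNA, and was at 0 in both 1-cell and both 2-cell libraries.

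The single transcript of this kind that the study names, TCONS_00005014 (chr12:102382986-102390994, minus strand, 3 exons), overlapped Rin3, a guanine nucleotide exchange factor of the endocytic Rab5 pathway, tail to tail. It had 113 and 335 TPM in oocyte, 539 and 44.1 in 1-cell, 0.87 and 60.9 in 2-cell, and between 0 and 1.82 in the 4-cell and 8-cell libraries. Its level was 6.20 and 6.28 in sperm and 4.19 and 12.1 in blastocyst. The oocyte libraries were above both sperm libraries, by 4.76 on the log2(TPM + 1) scale (SE 1.38, limma adjusted p = 0.0113). From 1-cell to 2-cell the groups overlapped, and the difference did not pass the test (adjusted p = 0.0656). The study lists PCR primers for this transcript, and reports that exon junctions of the transcripts it chose for PCR and Sanger sequencing were verified.

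The comparison of stages used limma on log2(TPM + 1), on which changes of low transcripts are understated, over all merged transcripts with at least 1 TPM in at least 2 libraries. Of the 457 antisense transcripts, 369 passed this filter over the 12 libraries from oocyte to blastocyst and 408 over all 14. Transcripts with an adjusted p under 0.05 are said to rise or fall, and the replicates of the stages compared did not overlap for any that did.

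From oocyte to 1-cell, 5 antisense transcripts rose (1.92% of all tested transcripts rose) and 2 fell (0.084% of all fell). TCONS_00018141 (chr7:65479596-65480798, plus strand), opposite Gm44792, had 218 and 36.8 TPM in oocyte and 3018 and 3475 in 1-cell, both 1-cell values lying far above the oocyte ones. It stayed at 2302 and 2145 in 2-cell, was 198 and 228 in 4-cell, and was under 1 TPM in blastocyst. The rise was 5.16 on the log2(TPM + 1) scale (SE 0.85, limma adjusted p = 0.0102).

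TCONS_00008525 (chr17:24611538-24613122, plus strand) faced a noncoding exon of Tsc2, which encodes the mTORC1 inhibitor tuberin, and followed the same course. It had 42.5 and 7.52 TPM in oocyte, 276 and 348 in 1-cell, 283 and 421 in 2-cell, 71.3 and 93.0 in 4-cell and 1.11 and 1.54 in 8-cell. It rose by 4.01 (SE 0.79, adjusted p = 0.0187) into the 1-cell and fell by 5.15 (SE 0.79, adjusted p = 0.00536) into the 8-cell stage. TCONS_00000811 (chr1:33064719-33066363, minus strand), which covers the lincRNA gene Gm37724, went from 55.9 and 9.89 TPM in oocyte to 469 and 631 in 1-cell and to 3.80 and 3.48 in 8-cell. None of the rises named here was called without oocyte replicate 2 or without either 1-cell library.

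The largest fall of the whole course was that of TCONS_00005892 (chr13:95337124-95337404, minus strand, 281 bases), opposite the 3′ UTR of Zbed3, a zinc finger gene with abundant oocyte mRNA here. The antisense transcript had 7887 and 21095 TPM in oocyte, 0 and 0 in 1-cell, and at most 26.2 TPM in any later library. Zbed3 itself had 24172 and 64680 TPM in oocyte and 42130 and 132356 in 1-cell. The antisense transcript fell by 13.66 (SE 0.73, adjusted p = 4.16e-06) while Zbed3 did not pass the test, and their ratio fell by 14.57 (SE 1.40, adjusted p = 0.000729), values that depend on the pseudocount because a group is at 0. All 281 bases lay opposite exons of merged transcripts, so that its reads and those of Zbed3 cannot be told apart. The long reads held the transcript in the 1-cell pool, the stage where the short reads list it at 0. C86187, a lincRNA gene, faced TCONS_00018109 (chr7:46968269-46975027, plus strand), whose level was 209 and 184 TPM in oocyte and 0 and 18.7 in 1-cell. This fall of 5.47 (SE 1.16, adjusted p = 0.0285) was lost in 13 of 19 alternative fits.

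**Figure D2:**
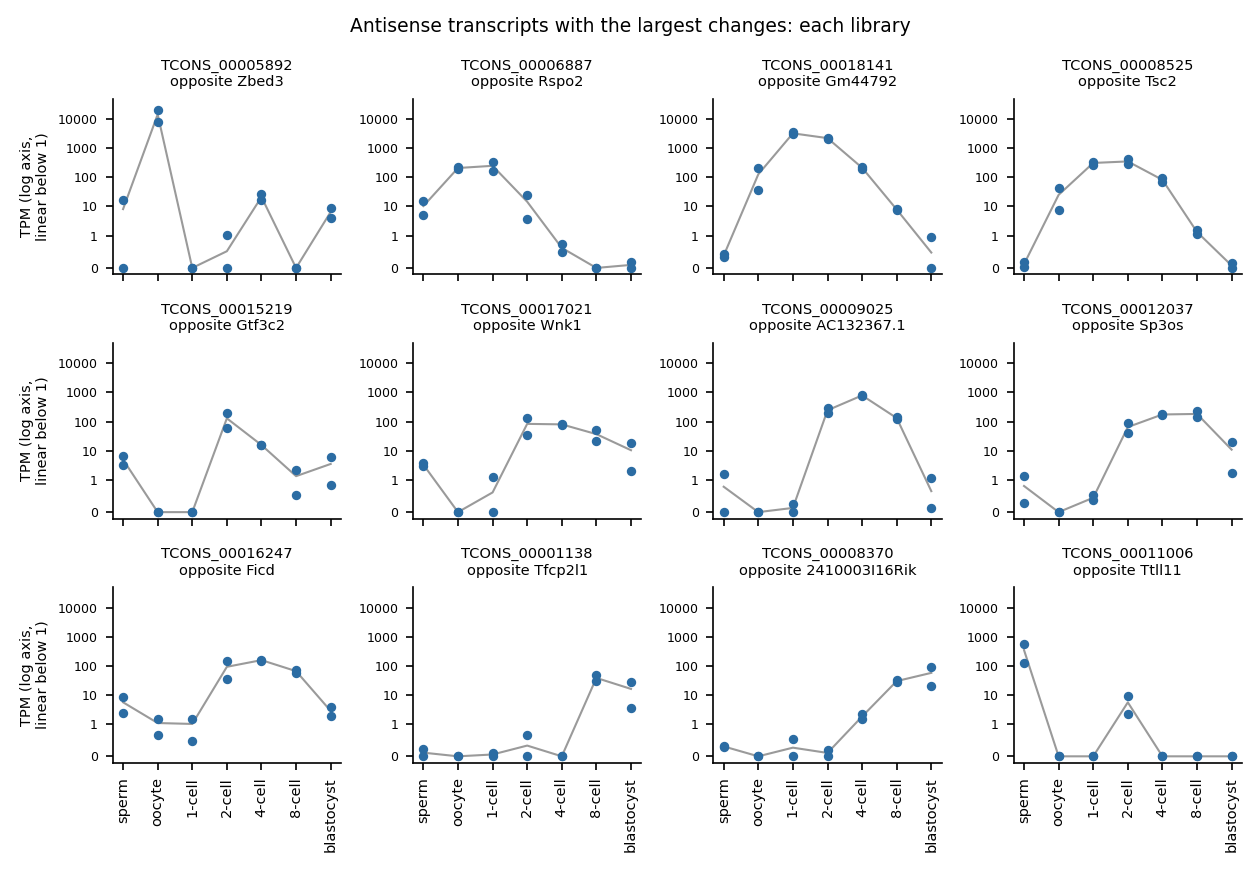
Each panel plots the TPM of an antisense transcript in the 2 libraries of each stage (points) and the stage mean (line), on a log axis that is linear below 1. TCONS_00005892 is seen at up to 21095 TPM in oocyte and at 0 in 1-cell, the 1-cell and 2-cell libraries hold the highest values of TCONS_00018141 and TCONS_00008525, and TCONS_00009025 and TCONS_00012037 are highest at the 4-cell and 8-cell stages.

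From 1-cell to 2-cell, 62 antisense transcripts rose (22.9% of all tested rose) and 13 fell (5.11% of all fell), which is 16.8% and 3.52% of the 369 tested. All tested transcripts shifted upward by a median of 0.75 and the antisense transcripts by 0.63, and after quantile normalization, which takes the shift of all transcripts to -0.07, 26 antisense transcripts rose and 52 fell. The balance of rises and falls therefore depended on the scaling. The 2-cell markers summed to 21.4 and 510 TPM in the 2-cell replicates, and the part of this gap in the calls was not tested. Antisense transcripts with a single exon rose in 43 and fell in 3 of 228 cases, with a median change of 0.91, and those with more than 1 exon rose in 19 and fell in 10 of 141 cases, with a median of -0.17. Overlapping transcripts of a locus were counted as separate cases. Of the 62 that rose, 47 had a mean under 1 TPM in the 1-cell libraries. Without 1-cell replicate 1 there were 32 calls, and without 2-cell replicate 1 there were 116. A fit on the 4 libraries of these stages alone gave 0 calls.

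The largest rise was that of TCONS_00009025 (chr17:24544416-24545010, minus strand), opposite the antisense gene AC132367.1. It had 0.26 and 0 TPM in 1-cell, 199 and 288 in 2-cell, 753 and 824 in 4-cell, 124 and 140 in 8-cell and 1.17 and 0.13 in blastocyst. The rise was 7.74 (SE 0.65, limma adjusted p = 0.000356), and the fall from 8-cell to blastocyst was 6.41 (SE 0.65, adjusted p = 0.00189).

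TCONS_00015219 (chr5:31179420-31180680, plus strand, 2 exons) overlapped the 5′ UTR of Gtf3c2, a subunit of the RNA polymerase III factor TFIIIC, head to head, by 97 bases. It was listed at 0 in both oocyte and both 1-cell libraries, at 196 and 62.1 TPM in 2-cell, at 16.0 and 15.2 in 4-cell and at most 6.73 elsewhere. Its level thus peaked at the 2-cell stage, where the rise was 6.80 (SE 0.79, adjusted p = 0.000491). Gtf3c2 had 7.84 and 7.14 TPM in 1-cell and 15.4 and 49.3 in 2-cell and did not pass the test (adjusted p = 0.104), and the ratio of antisense transcript to gene rose by 5.04 (SE 1.27, adjusted p = 0.0179).

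Wnk1, which encodes a kinase of ion transport, faced TCONS_00017021 (chr6:119965731-119966041, plus strand, 311 bases). It went from 0 and 1.22 TPM in 1-cell to 34.3 and 132 in 2-cell, a rise of 5.52 (SE 0.97, adjusted p = 0.0018), and the ratio to Wnk1 rose by 4.08 (SE 0.99, adjusted p = 0.0148).

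Among the falls, TCONS_00006887 (chr15:43170218-43171225, plus strand) overlapped the 5′ UTR of Rspo2, a secreted activator of Wnt signalling. It had 226 and 192 TPM in oocyte, 160 and 338 in 1-cell, 25.3 and 3.83 in 2-cell and under 1 from 4-cell on. Rspo2 was also a transcript of the early stages, at 96.8 and 235 TPM in 1-cell and 6.67 and 5.02 in 4-cell. The antisense transcript fell by 4.37 (SE 0.81, adjusted p = 0.00233) and the ratio to Rspo2 did not pass the test (adjusted p = 0.0831). TCONS_00006372 (chr14:105191119-105201432, plus strand) is 1 of 6 overlapping antisense transcripts at the pseudogene Gm6201. It had 91.2 and 91.4 TPM in 1-cell and 1.89 and 6.01 in 2-cell and fell by 4.36 (SE 0.75, adjusted p = 0.00166). TCONS_00002103 (chr10:41528870-41530051, minus strand), opposite the 3′ UTR of the sialomucin gene Cd164, went from 87.6 and 359 TPM to 0 and 0. Its fall (7.48, SE 2.10, adjusted p = 0.0203) was not called without any 1 of these 4 libraries.

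Fewer antisense transcripts were called at the later transitions, and the numbers depended on the fit. From 2-cell to 4-cell, 3 rose (1.46% of all) and 1 fell (1.17% of all), with 67 at an unadjusted p under 0.05, and after quantile normalization 11 rose and 8 fell. The antisense transcript of mt-Rnr2, TCONS_00021790, went from 0 and 0 TPM to 551 and 443 (8.95, SE 1.82, limma adjusted p = 0.0307). TCONS_00005892 returned from 0 and 1.03 TPM to 26.2 and 16.1 while Zbed3 fell, and TCONS_00015423, opposite the coding sequence of Ankrd17, went from 0.20 and 2.53 to 12.8 and 12.0 TPM. Ttll11, a tubulin polyglutamylase gene, faced TCONS_00011006, which went from 8.83 and 2.23 TPM to 0 and 0. It is at 0 in the other 10 libraries of this fit and passed the filter only through the 2-cell libraries, so that it had to differ there, both in this step and in the one before. These 4 calls were each lost without either 4-cell and without either 1-cell library, and 53 calls were made without 2-cell replicate 2.

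From 4-cell to 8-cell, 3 antisense transcripts rose (0.681% of all) and 10 fell (2.44% of all). TCONS_00001138 (chr1:118683652-118684242, minus strand) lay opposite the 3′ UTR of Tfcp2l1, a pluripotency transcription factor, and had 0 and 0 TPM in 4-cell, 47.3 and 28.9 in 8-cell and 28.4 and 3.58 in blastocyst. Tfcp2l1 itself rose at the same step, from 13.2 and 12.7 to 284 and 313 TPM. The antisense transcript rose by 5.25 (SE 0.76, limma adjusted p = 0.00495) and Tfcp2l1 by 4.42 (SE 0.69, adjusted p = 0.00768), and the ratio changed by 0.82 (SE 1.01, adjusted p = 0.787).

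The other rises were of TCONS_00004395, wholly opposite Rpl10l, a ribosomal protein gene, from 0 and 0 to 24.9 and 38.4 TPM, and of TCONS_00008370, opposite 2410003I16Rik, from 2.15 and 1.47 to 31.7 and 27.7 TPM. Among the falls, TCONS_00002205 (chr10:70191194-70192997, minus strand) faced the 3′ UTR of Ccdc6 and went from 661 and 890 TPM to 20.2 and 24.9. The calls named for this step were each lost without any 1 of its 4 libraries. There were 0 calls without 4-cell replicate 1 and 99 with the spread weighted by stage.

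From 8-cell to blastocyst, 7 antisense transcripts fell (1.28% of all) and 0 rose (0.83% of all), while 41 had an unadjusted p under 0.05 and quantile normalization gave 3 rises and 7 falls. TCONS_00012037 (chr2:72988244-72993545, minus strand, 2 exons) overlapped the antisense gene Sp3os tail to tail. It had 41.9 and 87.2 TPM in 2-cell, 172 and 178 in 4-cell, 227 and 138 in 8-cell and 20.0 and 1.66 in blastocyst. It fell by 4.57 (SE 0.89, limma adjusted p = 0.023). TCONS_00016247 (chr5:113739339-113740045, minus strand), opposite the 3′ UTR of Ficd, which modifies the chaperone BiP, went from 57.1 and 73.4 to 3.77 and 1.83 TPM. Without 8-cell replicate 1, 1 antisense transcript was called.

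**Figure D3:**
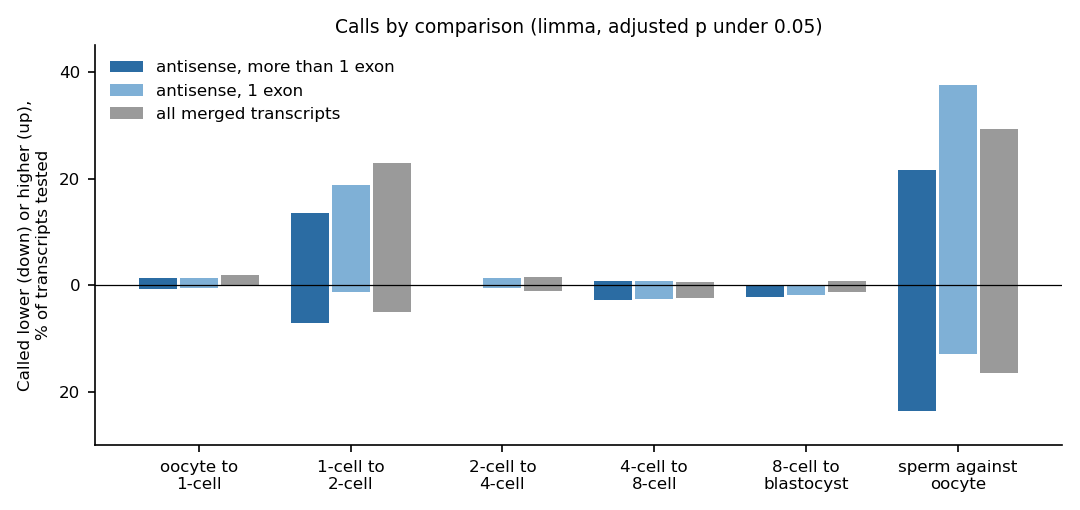
Bars above 0 give the percent of tested transcripts called higher in the later stage (or in sperm), and bars below 0 the percent called lower, for antisense transcripts with more than 1 exon, with a single exon and for all merged transcripts. The 1-cell to 2-cell step and sperm against oocyte hold nearly all calls. Over both exon sets together, 16.8% and 31.6% of antisense transcripts were called higher, against 22.9% and 29.3% of all merged transcripts.

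Sperm and oocyte were compared in a fit over all 14 libraries. They also came from different strains, so that cell type and strain cannot be told apart in this comparison. Of 408 antisense transcripts, 129 were higher in sperm (29.3% of all tested were) and 69 were lower (16.5% of all were), and after quantile normalization 110 were higher and 102 lower. Of those higher, 100 had a mean under 1 TPM in oocyte, and of those lower, 38 had one in sperm. The filter was passed by 369 without the sperm libraries, so that the rest passed only with at least 1 TPM in a sperm library. For these a higher level in sperm was favoured in advance. Single-exon transcripts were higher in sperm in 96 and lower in 33 of 255 cases, and those with more than 1 exon in 33 and 36 of 153 cases. In the sperm libraries, 5 of 6 epididymal and leukocyte markers had merged transcripts, and their summed TPM was 77601 in replicate 1 and 16182 in replicate 2, against 4.75 to 26.6 in oocyte. Cd74 took most of it, with 71096 and 14459 TPM, while Ptprc, which defines leukocytes, had 35.2 and 7.07 TPM. Their part in the sperm levels was not tested. Without sperm replicate 2, 126 antisense transcripts were called.

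TCONS_00011006 (chr2:35979865-35980220, plus strand) overlapped Ttll11 head to head and had 569 and 122 TPM in sperm and 0 and 0 in oocyte, while Ttll11 had 1.21 and 3.31 TPM in sperm and 6.27 and 50.1 in oocyte. The antisense transcript was higher in sperm by 8.05 (SE 0.73, limma adjusted p = 3.06e-06) and Ttll11 lower (adjusted p = 0.02). TCONS_00002613 (chr11:29825100-29825628, plus strand), opposite 4931440F15Rik, had 275 and 301 TPM in sperm and 0.18 and 0 in oocyte, and it was higher in sperm by 8.05 (SE 1.04, adjusted p = 4.26e-05). Of the 110 called antisense transcripts whose sense gene was also tested, the sense gene was called in the same direction for 58, in the opposite direction for 11 and not called for 41 (36.2% of all genes tested were higher in sperm and 17.4% lower).

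Oocyte levels were far above sperm for TCONS_00014576 (chr4:58286065-58367466, minus strand), which has 13 exons opposite Musk, a receptor kinase of the neuromuscular junction. It had 274 and 304 TPM in oocyte, 145 and 88.8 in 1-cell and 0 and 0 in sperm, and 9 of its 12 introns were mirrored. It is 1 of 7 transcripts assigned to the strand opposite Musk, and no merged transcript was assigned to the strand of Musk. Its readable mirrored acceptor ended in AC rather than AG, and 20 A followed its end in the genome. Whether the strand was assigned rightly was not tested. TCONS_00002205 and TCONS_00005892 were lower in sperm by more, with 3284 and 789 TPM and 7887 and 21095 TPM in oocyte against at most 16.2 TPM in sperm.

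The sense gene had merged transcripts of its own for 253 of the 457, and for 204 it had none, so that no sense level can be set beside them. Shares were taken at each stage over the pairs with a mean of at least 1 TPM for either member, 213 to 247 of the 253. In the separate libraries, the median share of the antisense transcript in the summed TPM of both was 24.4% and 22.4% in sperm, above every other library. It was 4.81% and 1.39% in oocyte, 4.37% and 4.69% in 1-cell, 9.83% and 12.9% in 2-cell and 8.23% and 4.12% in blastocyst, and lay between 7.51% and 10.7% in the 4-cell and 8-cell libraries. By stage means the antisense transcript exceeded the sense gene in 69 of 239 such pairs in sperm (28.9%) and in 25 of 229 in blastocyst (10.9%). These shares were not computed for other opposite-strand pairs, so that the higher share in sperm cannot be called particular to antisense transcripts. Over the 7 stage means on the log2(TPM + 1) scale, the antisense transcript and its sense gene had a median Pearson r of 0.58 in the 225 pairs that both reached 1 TPM in at least 2 libraries, against 0.28 in 1137 pairs of other merged transcripts that overlap an exon of the opposite strand. The 7 points of a pair share the libraries and, over the overlap, the reads.

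The correlation differed with the layout of the pair. The median r was 0.68 for 160 antisense transcripts inside the sense gene, 0.14 for 39 head to head and 0.16 for 26 tail to tail. It was 0.85 for 19 with a mirrored intron and 0.81 for 68 with at least 12 A after the end, against 0.66 for 19 with fewer A and 0.33 for 138 whose end could not be read. Overlapping antisense transcripts of a locus were counted as separate pairs and are not independent. In the 70 pairs with every base opposite an annotated exon the median was 0.81, and in the other 155 it was 0.35. TCONS_00020962 (chr9:103354931-103355388, plus strand), opposite the 3′ UTR of Cdv3, tracked the gene with r = 1.00: it had 364 and 284 TPM in 1-cell and 155 and 1609 in 2-cell where Cdv3 had 490 and 363, and 231 and 2009. The replicates of both moved together. TCONS_00018588 at Pla2g4c, a phospholipase gene, and TCONS_00018917 at Nav2 (r = 0.99 each) also lay inside 3′ UTRs. TCONS_00008796 at Lrg1 and TCONS_00003446 at the B-cell factor gene Ebf1 (r = 1.00 each) were near 0 outside sperm, so that their r rests on that stage.

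**Figure D4:**
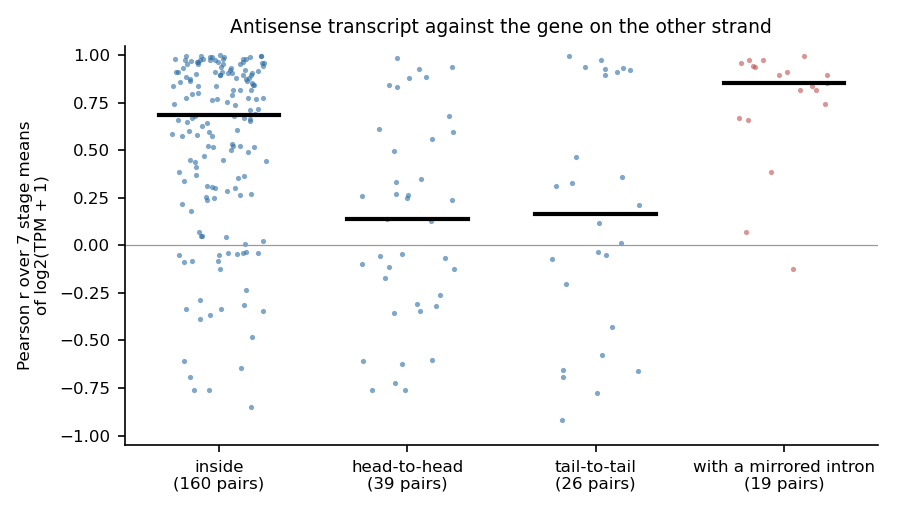
Points give the Pearson r between an antisense transcript and its sense gene over 7 stage means of log2(TPM + 1), by position relative to the sense gene, and thick lines give medians. The red points are the 19 pairs with a mirrored intron, which are also counted in the groups to the left. Overlapping antisense transcripts of a locus are separate points. Pairs inside the sense gene have a median of 0.68, and head-to-head and tail-to-tail pairs spread around 0.14 and 0.16.

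The antisense transcripts named for the lowest correlations all had more than 1 exon and no mirrored intron. TCONS_00002488 (chr10:128764718-128771264, minus strand, 3 exons) is 1 of 6 overlapping antisense transcripts at Pym1, a factor that recycles exon junction complexes, and had r = -0.92. It was at 2.03 and 0 TPM in oocyte, 4.92 and 0 in 1-cell and at most 0.45 from 2-cell on, while Pym1 had 3.36 and 1.01 TPM in 1-cell, 15.0 and 30.8 in 2-cell and 51.1 and 73.9 in 4-cell. These are low values in 1 library per stage. TCONS_00012037 at Sp3os had r = -0.78, and TCONS_00000185 at Ppil3 and TCONS_00015165 at Abcf2 had r = -0.76 each, with levels up to 4.14 and 15.3 TPM.

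**Figure D5:**
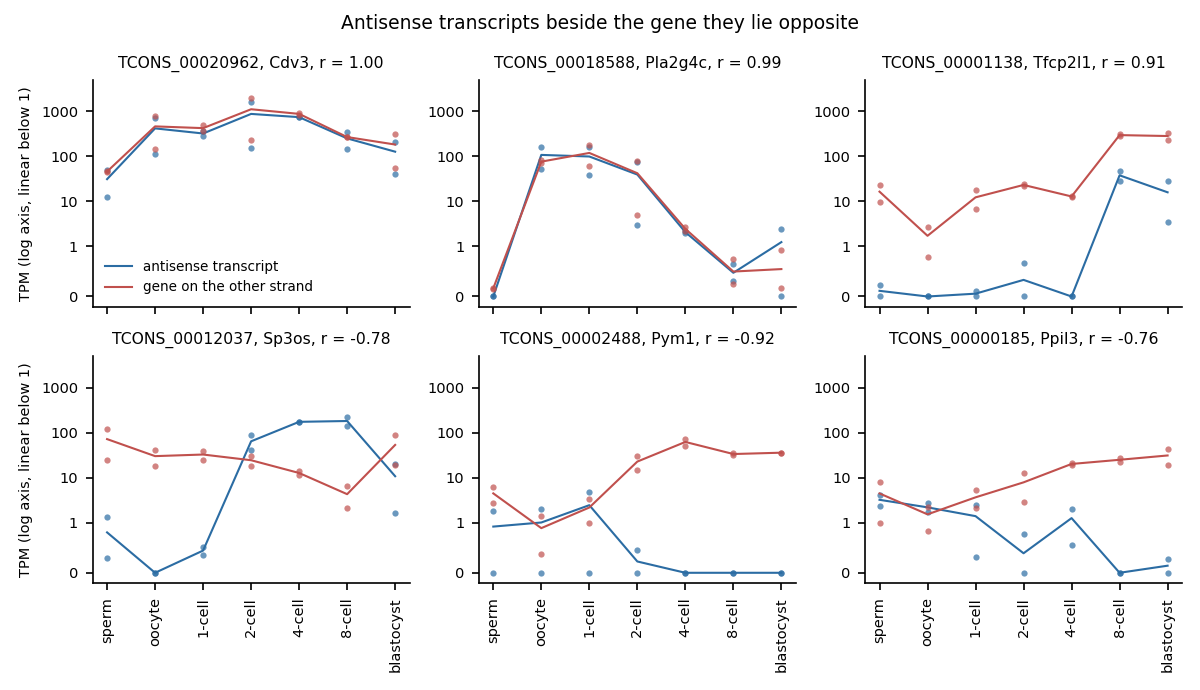
Each panel plots the TPM of an antisense transcript (blue) and of its sense gene (red) in the 2 libraries of each stage (points) with the stage means (lines), on a log axis that is linear below 1. In the upper panels both rise and fall together (Cdv3, Pla2g4c, Tfcp2l1), and in the lower ones (Sp3os, Pym1, Ppil3) the levels run apart, the antisense transcript at Pym1 being at most 0.45 TPM from 2-cell on while the gene has 15.0 or more.

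The ratio of antisense transcript to sense gene was tested for the 204 pairs in which both passed the filter. It changed in at least 1 of the 5 transitions for 44 (21.6%, against 31.2% of all 1270 opposite-strand pairs), and 39 of the changes fell on 1-cell to 2-cell, where 22 ratios rose (13.4% of all pairs) and 17 fell (12.3% of all). Where the ratio rose, the antisense transcript itself was called in 10 cases and the sense gene in 5. Where it fell, the antisense transcript was called in 4 cases and the sense gene in 15. Of the 43 antisense transcripts called at this step with a tested sense gene, 14 sense genes moved the same way, 0 the opposite way and 29 were not called (26.1% of all genes tested rose and 6.19% fell). Without 1-cell replicate 1, 14 pairs were called in at least 1 transition.

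The following pairs were chosen after their values were seen. At Pym1, the gene rose from 1-cell to 2-cell (2.93, limma adjusted p = 0.00583) while the ratio fell for 5 of 6 tested antisense transcripts, by 3.41 to 3.94 (adjusted p from 0.00479 to 0.0187). None of the 6 was called itself, and they overlap each other and are not independent. Gata1, a transcription factor of blood cells, had 0.13 and 0.02 TPM in 1-cell and 19.8 and 23.2 in 2-cell, while its tail-to-tail antisense transcript TCONS_00021833 (chrX:7952149-7976730, plus strand, 3 exons) had 17.9 and 13.0, and 4.96 and 12.8 TPM. The ratio fell by 5.23 (SE 0.86, adjusted p = 0.00273). In the other direction, TCONS_00018625 (chr7:19227659-19228629, minus strand) overlapped the mitochondrial gene Opa3 head to head and went from 0 and 0 to 50.7 and 2.62 TPM while Opa3 had 14.3 and 7.89, and 4.34 and 1.07 TPM. The ratio rose by 5.59 (SE 0.88, adjusted p = 0.00247). Nr5a2, a nuclear receptor of early embryos, had 9.87 and 28.4 TPM in 2-cell and 161 and 178 in 4-cell, and its tail-to-tail antisense transcript TCONS_00000484 (chr1:136821110-136843397, plus strand, 3 exons) had 4.67 and 4.42, and 0 and 1.94 TPM. That ratio fell by 4.95 (SE 0.97, adjusted p = 0.0305).

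On the lists of regulators of early development, none of 15 maternal-effect and oocyte genes, 3 of 28 chromatin regulators and 1 of 21 lineage transcription factors had one. Of these 4 antisense transcripts, 3 were tested, and none of the 3 was called in any of the 6 comparisons. Beside that of Kdm6b, TCONS_00007108 (chr15:98863673-98871183, plus strand, 11 exons) faced the coding sequence of the H3K4 methyltransferase gene Kmt2d, and 7 of its 10 introns were mirrored. It had 6.22 and 203 TPM in oocyte and between 2.91 and 41.9 in the other libraries. TCONS_00011622, wholly opposite the 3′ UTR of Sall4, a pluripotency factor gene, was listed at 0 in all 14 libraries, while Sall4 had 13.9 to 259 TPM from oocyte to blastocyst.

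The long reads placed 360 of the 457 antisense transcripts (78.8%) in a single stage, 14 in at least 4 stages and 2 in all 7. Sperm, oocyte and 1-cell pools held the most, with 151, 128 and 122, and the 4 later pools held between 41 and 62 each. Of the 360 found in 1 stage, 206 (57.2%) also had their highest mean TPM in that stage. In the short reads the highest mean lay in sperm for 33.8% of the antisense transcripts (23.6% of all merged transcripts), in oocyte for 15.0% (10.8%), in 1-cell for 10.8% (11.0%), in 2-cell for 17.0% (17.6%), in 4-cell for 12.6% (18.5%), in 8-cell for 7.74% (8.36%) and in blastocyst for 2.88% (10.1%). For those with more than 1 exon the share was 24.0% in oocyte and 20.5% in 1-cell, with overlapping transcripts of a locus, as at Musk, Gm6201 and Pym1, counted separately. With 1 long-read pool a stage, these stage counts have no replicate check. Long-read shares over all merged transcripts were not computed, so that the counts cannot be called particular to antisense transcripts. The study's long-read libraries also differed in read number, and those of 1-cell and blastocyst were sequenced in more than 1 run.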

How the data were processed

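The authors deposited transcript models merged from the long reads of 7 stages and, for each of 14 short-read libraries, the level of every merged transcript as TPM, estimated with Salmon from Smart-seq2 reads. Their processing notes also name GSNAP, STAR and Cufflinks, without versions, and the build mm10. TPM keeps no read depth, so no counting interval can be given. Antisense transcripts were found by comparing exons with GENCODE vM21 (the study's methods name vM20) at a minimum overlap of 1 base. One merged transcript without a strand was left out. Sequences were read from GENCODE transcripts on GRCm38.

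Levels were tested as log2(TPM + 1) with limma 3.58.1 (R 4.3.3), with stage as the single factor and a common trended prior, over transcripts that reached 1 TPM in 2 or more libraries, and p-values were adjusted by Benjamini-Hochberg over all tested transcripts. Oocyte to blastocyst were fitted on 12 libraries, and sperm against oocyte on 14. Sense genes were tested as sums over their merged transcripts, and ratios as log2 differences over 1270 opposite-strand pairs. The fits were tested on simulated data. Other tables were made with Python 3.11.15, pandas 2.3.3 and numpy 2.4.6.

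Named were the transcript the study names, the 10 with the highest mean TPM, the 3 largest rises and 3 largest falls called in each comparison, the 5 highest and 5 lowest correlations and those opposite listed genes. Some transcripts that this rule takes in are not reported here. The antisense transcripts and lists were chosen with earlier results of these data known. Alternatives were a pseudocount of 0.1, no or a stricter filter, quantile normalization, a replicate block, a spread weighted by stage, a fit on the libraries compared, leaving out each library, and narrower sets of antisense transcripts. Replicate numbers follow the sample titles, which differ from another label for the 8-cell libraries.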

Additional observations from a re-analysis of the deposited data

How the results depend on the processing

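None of the 30 named changes turned its direction under any alternative run, and 5 (all sperm against oocyte) were called under every one, while 19 were lost in a fit on the 4 libraries compared. In that fit the number of antisense transcripts called was 0 for oocyte to 1-cell, 1-cell to 2-cell, 2-cell to 4-cell and 8-cell to blastocyst, 57 for 4-cell to 8-cell, 96 for sperm against oocyte and 28 for the ratio to the sense gene. With the spread weighted by stage it was 28 for 1-cell to 2-cell, 0 for 2-cell to 4-cell, 99 for 4-cell to 8-cell and 12 for 8-cell to blastocyst. Quantile normalization gave 19 calls for 2-cell to 4-cell and 20 for 4-cell to 8-cell, and no filter gave 11 for oocyte to 1-cell. Among antisense transcripts with more than 1 exon, fewer being tested, the 6 comparisons in order gave 3, 29, 0, 5, 3 and 69 calls and the ratio 21, and without mirrored introns, a set chosen after seeing the data, 2, 27, 0, 4, 3 and 49 calls and the ratio 19. With at least 50% of the bases outside opposite-strand merged exons, 2-cell to 4-cell gave 2 calls. For the other moved counts the cause was not tested.

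Leaving out 1 library at a time gave 1 to 10 calls for oocyte to 1-cell, 32 to 116 for 1-cell to 2-cell, 0 to 53 for 2-cell to 4-cell, 0 to 30 for 4-cell to 8-cell, 1 to 15 for 8-cell to blastocyst, 126 to 224 for sperm against oocyte and 14 to 73 for the ratio. Counts moved by over 1.5 times without oocyte replicate 2 or either 1-cell library (oocyte to 1-cell), without either 1-cell library or 2-cell replicate 1 (1-cell to 2-cell), without any 1-cell, 2-cell, 4-cell or 8-cell library (2-cell to 4-cell), without any 2-cell, 4-cell or 8-cell library (4-cell to 8-cell), without any library but blastocyst replicate 1 (8-cell to blastocyst), without sperm replicate 2 (sperm against oocyte) and without either 1-cell library or 2-cell replicate 2 (ratio).

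Same-numbered libraries deviated together (correlation over 0.1) in 3 of 15 pairs of stages, from -0.49 to 0.41, so that the numbers were not taken to pair them. The replicate block gave 6, 60, 3, 10, 3 and 193 calls in the order of the comparisons and 36 for the ratio, and 3 of the named changes lost their call with it. The median correlation with the sense gene was 0.58 and the number of antisense transcripts 457, or 439 at a minimum overlap of 50 bases.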
